A study of Mus musculus with 24 samples.

Results

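The 10 genes described here belong to the cellular response to oxygen and to sugar breakdown, and were followed across normal mouse adrenal glands, MYCN-carrying adrenal glands and 2 kinds of transgenic neuroblastoma. They comprise the 3 hypoxia-inducible factor subunits Hif1a, Epas1 (also called HIF-2 alpha) and Hif3a, the glucose carrier Slc2a1 (GLUT1), and the glycolytic enzymes Hk1, Hk2, Pfkp, Pgk1, Pkm and Ldha. The members were chosen by gene symbol, which gave 10 of the 21833 protein-coding genes in the expression table. RNA was sequenced from 24 samples in 4 groups. AG were adrenal glands of mice labelled CRE - (n = 3), and AGM were adrenal glands without tumor of mice labelled MYCN +/-, CRE + (n = 5). TI were neuroblastoma tumors labelled IGF2BP1, CRE + (n = 8, of which 1 was +/- and 7 were +/+). TIM were neuroblastoma tumors labelled IMP1/MYCN, CRE + (n = 8), where IMP1 is another name for IGF2BP1, an RNA-binding protein, and MYCN is the transcription factor often amplified in neuroblastoma. Both transgenes sat at the Rosa26 locus without their native 3'UTR, and a Cre recombinase driven by the Dbh promoter switched them on in the sympatho-adrenal lineage. AG libraries are whole glands of mice without the recombinase, so no group holds the recombinase alone. By the study's account most IGF2BP1 tumors lay in the lower abdomen, and IGF2BP1/MYCN mice had tumors of the adrenal glands, the abdomen and along the spine. Tumor site could not be assigned to a library, so in comparisons with glands site and genotype cannot be told apart. The labels give no age, but by the study's account the MYCN mice without tumor were kept to a fixed late time, the homozygous IGF2BP1 mice were culled earlier and the IGF2BP1/MYCN mice were the shortest lived, so age and genotype cannot be told apart. The labels do not say that the samples came from separate animals, so the p-values measure the spread between these samples.

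Hypoxia-inducible factors work as pairs of an alpha subunit (encoded by Hif1a, Epas1 or Hif3a) and a beta subunit (Arnt or Arnt2). When oxygen is present, prolyl hydroxylases of the Egln family mark the alpha subunit, the VHL complex binds it, and it is degraded, so much of the control acts on protein that RNA-seq does not see. When oxygen is scarce, the pair binds short DNA elements and raises glucose uptake, glycolysis and vessel growth, and HIF-2 alpha is also known from chromaffin cells and endothelium. Glycolysis turns glucose to pyruvate and lactate, and MYC family proteins are known to bind E-boxes near many of its genes.

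Expression is given as FPKM (fragments scaled to gene length in kilobases and to library size), so levels of different genes can be set side by side. The reads recovered from these values numbered 12468968 to 21353172 in each AG or TI library and 58530450 to 1170004708 in each AGM or TIM library. Outside the 126 genes that exceeded 1000 FPKM in any library, none of them among the 10 described here, the range was 12334076 to 23683176. The library sizes implied by the FPKM values ran from 7.47e+07 (TI library 7) to 1.34e+08 (TIM library 4). They did not match the recovered reads, and the reason was not tested. These 126 genes held 0.217% to 2.21% of the reads in AG and TI and 64.5% to 98.6% in AGM and TIM, and 3 AGM and 4 TIM libraries exceeded 90%. All AG samples came from sequencing run 1, all AGM samples from run 2, and the TIM samples from runs 2 and 3, so run and genotype cannot be told apart in AGM vs AG or TIM vs AG. Of the TI samples, 6 came from run 1, 1 from run 2 and 1 from run 3. Summed FPKM of 8 adrenal cortex markers was 645 to 667 (AG) and 4293 to 5373 (AGM) in the glands, but 0.0173 to 10.1 (TI) and 0.281 to 9.28 (TIM) in the tumors. Summed FPKM of 8 sympatho-adrenal markers was 90.04 to 129.5 (AG), 900.4 to 1700 (AGM), 196 to 1606 (TI) and 197 to 3883 (TIM), so the lineage markers were present in every tumor. In whole tissue, fewer cells of a type and less RNA per cell cannot be told apart.

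Sequence upstream of the members was searched for the core of the hypoxia response element (ACGTG or GCGTG) and for the E-box CACGTG, because these are the letters that HIF pairs and MYC family proteins are known to bind. The E-box contains ACGTG on either strand, so each E-box also counts as an ACGTG match. In windows from 250 bases before to 50 bases after the annotated start of the Ensembl canonical transcript (genome GRCm39, GENCODE release M39, both strands), ACGTG was found in 20.6% of 21687 genes, GCGTG in 36.9% and CACGTG in 7.88%. Among the 10 members, ACGTG occurred in 6 (Hif1a, Slc2a1, Hk2, Pfkp, Pgk1 and Ldha), GCGTG in 6 (Epas1, Hif3a, Slc2a1, Hk1, Pfkp and Ldha) and CACGTG in 3 (Hif1a, Pfkp and Ldha). Pkm had none of the letters in this window. The stretches shown lie outside annotated exons of the gene, run 5′ to 3′ on the strand of the gene, and carry the matches in capitals (CACGT and CACGC are the same elements on the opposite strand). They are at chr7:46495063-46495108 on the plus strand (Ldha), chr13:6699099-6699144 on the minus strand (Pfkp), chr12:73954486-73954531 on the plus strand (Hif1a), chrX:105230536-105230599 on the plus strand (Pgk1), chr4:118965861-118965905 on the plus strand (Slc2a1) and chr6:82751470-82751681 on the minus strand (Hk2).
Ldha: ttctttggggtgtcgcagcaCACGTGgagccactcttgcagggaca
Pfkp: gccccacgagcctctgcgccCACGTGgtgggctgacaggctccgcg
Hif1a: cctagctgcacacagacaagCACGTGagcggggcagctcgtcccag
Pgk1: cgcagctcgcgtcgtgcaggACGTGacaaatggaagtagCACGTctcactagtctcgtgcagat
Slc2a1: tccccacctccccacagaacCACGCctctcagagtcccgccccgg
Hk2: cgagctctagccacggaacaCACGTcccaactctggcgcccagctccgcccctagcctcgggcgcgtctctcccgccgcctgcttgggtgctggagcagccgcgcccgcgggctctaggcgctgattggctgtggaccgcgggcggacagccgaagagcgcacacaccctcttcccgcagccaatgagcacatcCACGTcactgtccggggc

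The Ldha window held a second E-box, at bases -83 to -78 before the start, beside the shown one at -180 to -175. The E-box of Pfkp lay at -154 to -149 and that of Hif1a at -64 to -59. Pgk1 carried its ACGTG matches at -150 to -146 and -131 to -127, and Hk2 at -209 to -205 and -35 to -31. A match is a description of letters and was not tested as a binding site.

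The first comparison asked how the tumors and the MYCN glands differed from normal adrenal glands. Of the 10 members, 9 were tested (Hif3a stayed below the filter on low values), with limma on log2(FPKM + 1) over 10171 genes and a false discovery rate (FDR) below 0.05 as the threshold. In TI vs AG, Hif1a, Hk1 and Pfkp were higher and Epas1 and Hk2 were lower, that is 3 higher and 2 lower of 9. Over all tested genes 24.6% were higher and 27.7% lower in this comparison (52.4% in either direction). In TIM vs AG, Slc2a1, Hk1, Pfkp, Pgk1 and Ldha were higher and Epas1 was lower, 5 and 1 of 9, beside 22.5% and 28.5% of all genes (51% in either direction). In AGM vs AG, Slc2a1, Pgk1 and Ldha were higher and Hif1a was lower, 3 and 1 of 9, beside 14.6% and 14% of all genes (28.6% in either direction).

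The second comparison asked how the tumor types differed from each other, and the third how the TIM tumors differed from MYCN glands. In TIM vs TI, Slc2a1, Hk2, Pgk1, Pkm and Ldha were higher and Hif1a was lower, 5 and 1 of 9, beside 10% and 12.9% of all genes (22.9% in either direction). In TIM vs AGM, Hif1a, Hk1 and Pfkp were higher and Epas1 and Hk2 were lower, 3 and 2 of 9, beside 31.9% and 33.4% of all genes (65.3% in either direction). The median log2 fold change of the 9 members was 0.20 in TI vs AG, 0.71 in TIM vs AG, 0.48 in AGM vs AG, 0.41 in TIM vs TI and 0.22 in TIM vs AGM. The median of all tested genes was between -0.0049 and 0.033 in these comparisons. When the libraries above 90% were left out, a choice made after the data were seen, the calls numbered 5, 6, 3, 4 and 3 in the same order of comparisons. Of all tested genes, 54.5%, 49.995%, 18.1%, 6.67% and 51.6% were called in that fit, again in this order.

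**Figure D1:**
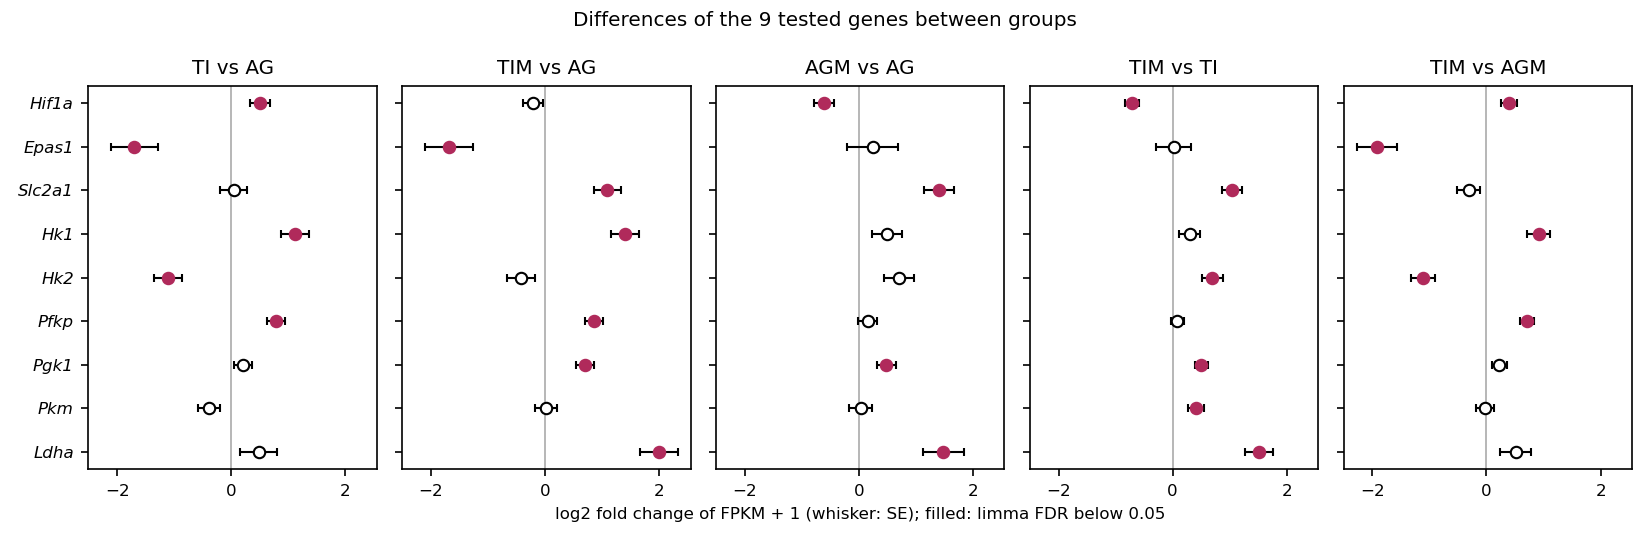
Log2 fold change of FPKM + 1 (horizontal axis) of the 9 tested genes (rows) in 5 comparisons (panels), with whiskers of 1 SE and filled points for a limma FDR below 0.05. Ldha lies at 1.99 in TIM vs AG and at 0.48 in TI vs AG, and Epas1 at -1.70 in TI vs AG and -1.68 in TIM vs AG.

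Groups that did not overlap in FPKM were counted as well. In TI vs AG the libraries did not overlap for 6 of 9 members, against 51.1% of all tested genes. The count was also 6 of 9 in TIM vs AG, against 42.5%, and 6 of 9 in AGM vs AG, against 61.9%. In TIM vs TI it was 2 of 9, against 1.55% of all genes, and the 2 were Hif1a (8 of 8 TIM libraries below all TI libraries) and Ldha (8 of 8 above). In TIM vs AGM it was 1 of 9, Epas1, against 35.2%.

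Hif1a (ENSMUSG00000021109, chromosome 12, 73948149 to 73996321, plus strand) encodes the oxygen-regulated subunit of HIF-1. It was highest in TI and lowest in AGM. The AG libraries held 1.77, 1.77 and 1.84 FPKM, and the AGM libraries 0.474, 0.712, 0.817, 0.824 and 1.44 FPKM. TI ranged from 2.02 over a median of 3.13 to 4.26 FPKM, and TIM from 0.678 over 1.57 to 1.81 FPKM. TI therefore lay wholly above AG and above TIM, and AGM wholly below AG. The group means ± SD were 1.79 ± 0.0402 for AG, 0.854 ± 0.359 for AGM, 3.01 ± 0.743 for TI and 1.44 ± 0.409 for TIM, with n = 3, 5, 8 and 8 here and throughout. The log2 fold change was 0.50 ± 0.17 in TI vs AG (SE; FDR 0.0162), -0.61 ± 0.18 in AGM vs AG (FDR 0.0153), -0.71 ± 0.13 in TIM vs TI (FDR 0.000462) and 0.40 ± 0.14 in TIM vs AGM (FDR 0.0187). TIM vs AG was -0.21 ± 0.17 (FDR 0.305), so that in the order TI, AG, TIM, AGM only AG and TIM did not differ past the threshold. The TI vs AG call was lost without AG library 1 (FDR 0.0522) or 3 (FDR 0.0527) and with FPKM scaled to reads outside the genes above 1000 FPKM (0.65, FDR 0.0664). The AGM vs AG call was lost without AG library 2 (FDR 0.0546) and without the libraries above 90% (-0.40, FDR 0.194), and the TIM vs AGM call without AGM library 5 (FDR 0.0707) and without the libraries above 90% (FDR 0.148).

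Epas1 (ENSMUSG00000024140, chromosome 17, 87061087 to 87140838, plus strand) encodes HIF-2 alpha. It was lower in both kinds of tumor than in any gland. In the AG libraries it stood at 8.03, 8.06 and 8.21 FPKM, and in the AGM libraries at 8.50, 9.72, 9.75, 10.4 and 10.6 FPKM. TI ranged from 0.456 over a median of 1.67 to 6.70 FPKM, and TIM from 0.398 over 2.62 to 3.78 FPKM. Every tumor lay below every gland, but the spread among tumors was wide. The mean was 8.10 ± 0.0975 FPKM in AG and 9.79 ± 0.816 in AGM, against 2.25 ± 2.07 in TI and 2.14 ± 1.36 in TIM (SD). The log2 fold change was -1.70 ± 0.42 in TI vs AG (SE; FDR 0.00157), -1.68 ± 0.42 in TIM vs AG (FDR 0.00178) and -1.92 ± 0.35 in TIM vs AGM (FDR 5.9e-05). AGM vs AG (0.24 ± 0.45, FDR 0.734) and TIM vs TI (0.02 ± 0.31, FDR 0.989) did not pass, although AGM vs AG did when only these 2 groups set the spread (FDR 0.0260).

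Epas1 is strongly expressed in endothelium, and the endothelial markers were lower in most tumors too. Summed FPKM of 8 endothelial markers was 22.2 to 23.6 (AG) and 20.2 to 26.2 (AGM) in the glands, against 2.99 to 27.97 (TI) and 2.00 to 13.0 (TIM) in the tumors. Of the 7 endothelial markers tested, 5 were lower in TI vs AG and 7 in TIM vs AG, and none was higher. Tek stayed below 1 FPKM in every TI library, and Kdr, Tek and Emcn in every TIM library, while none of the 8 was at 0 throughout a group. The TI library with the highest Epas1 (6.70 FPKM) also had the highest endothelial sum (27.97 FPKM), and the TIM library with the highest Epas1 (3.78 FPKM) had the highest endothelial sum among TIM (13.0 FPKM). That TI sum exceeded every gland, while Epas1 in the same library stayed below every gland. The lowest Epas1 also went with the lowest sum, in TI library 3 (0.456 and 2.99 FPKM) and TIM library 8 (0.398 and 2.00 FPKM). Between these ends the order was kept in TIM except that libraries 1 and 4 changed places. In TI it was kept in part. Libraries 1 and 2 changed places, and library 6 had 3.66 FPKM of Epas1 and a sum of 6.74 FPKM. Library 7 had 2.17 and 8.13 FPKM, and library 8 had 2.00 and 6.92 FPKM. Adrenal cortex markers, named above, were low in all tumors as well. The part of these cells in the Epas1 values was not tested.

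**Figure D2:**
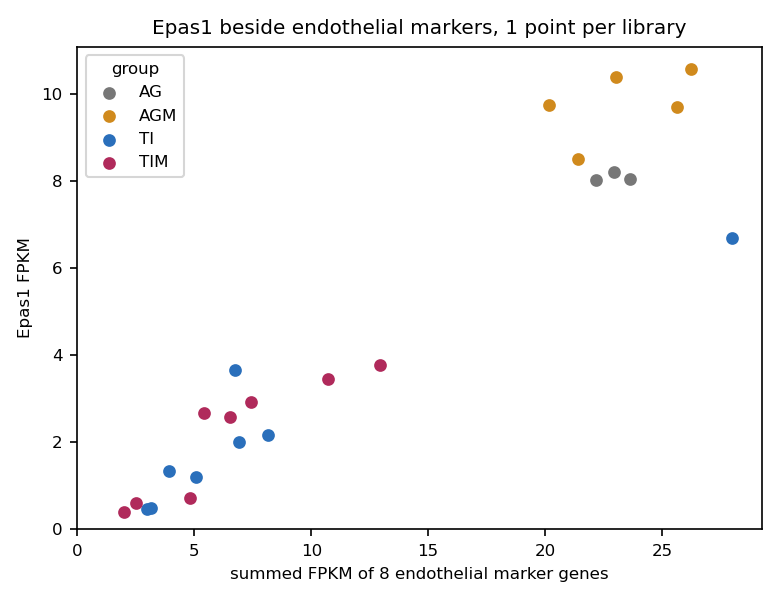
Epas1 FPKM (vertical axis) against the summed FPKM of 8 endothelial marker genes (horizontal axis), with 1 point per library coloured by group. The 8 gland libraries sit between 8.03 and 10.6 FPKM of Epas1, and 1 TI library with an endothelial sum of 27.97 reaches 6.70 FPKM.

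Hif3a (ENSMUSG00000004328, chromosome 7, 16764918 to 16796352, minus strand) encodes the remaining alpha subunit, whose forms can oppose the others. It was the scarcest of the 10 genes. It had 19, 23 and 28 recovered reads in the AG libraries (0.0269 to 0.0393 FPKM) and 51 to 110 in AGM (0.0908 to 0.179 FPKM). TI held 0 to 11 reads (at most 0.0151 FPKM) and TIM 0 to 240 reads (at most 0.393 FPKM). TI lay below AG in 8 of 8 libraries and AGM above AG in 5 of 5. In the libraries listed at 0 (2 TI and 1 TIM), 3 reads would have been 0.00368 to 0.00598 FPKM, a limit that covers counting error only. The exact two-sided permutation test on FPKM, adjusted over the 5 comparisons, gave p = 0.0183 for TI vs AG, 0.0298 for AGM vs AG, 0.0183 for TIM vs TI, and 0.719 for TIM vs AG and for TIM vs AGM. The highest TIM libraries, with 0.393 and 0.312 FPKM, were also the ones with the highest summed Schwann and sustentacular markers (23.3 and 14.9 FPKM) and adipocyte markers (37.1 and 11.53 FPKM) among TIM. They also had the highest adrenal cortex (9.28 and 2.64 FPKM), fibroblast (27.9 and 25.2 FPKM) and skeletal muscle sums (3.77 and 13.0 FPKM) among TIM. The part of any of these cells was not tested.

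Slc2a1 (ENSMUSG00000028645, chromosome 4, 118965908 to 118996365, plus strand) encodes the basal glucose carrier GLUT1. It was about as high in TIM as in AGM and low in AG and TI. AG libraries were at 0.829, 0.887 and 0.936 FPKM, and AGM libraries at 3.52, 3.92, 4.06, 4.14 and 4.34 FPKM. TI ranged from 0.311 over a median of 0.932 to 2.36 FPKM, and TIM from 1.36 over 3.52 to 4.56 FPKM. Every AGM and TIM library exceeded every AG library, whereas TI lay on both sides of AG. The log2 fold change was 1.09 ± 0.24 in TIM vs AG (SE; FDR 0.000511), 1.40 ± 0.26 in AGM vs AG (FDR 0.000237) and 1.05 ± 0.18 in TIM vs TI (FDR 0.000324). The neighbours AGM and TIM (-0.31 ± 0.20, FDR 0.170) and TI and AG (0.04 ± 0.24, FDR 0.933) did not differ past the threshold, and the sign of the latter turned under other settings.

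Hk1 and Hk2 encode hexokinases, which trap glucose in the cell as the first step of glycolysis. Hk1 (ENSMUSG00000037012, chromosome 10, 62104621 to 62215687, minus strand) is the form of most tissues, and Hk2 (ENSMUSG00000000628, chromosome 6, 82699740 to 82751469, minus strand) is known as the insulin- and HIF-responsive form of muscle, fat and many tumors. They moved in opposite directions in TI. Hk1 was 1.35, 1.38 and 1.43 FPKM in AG and 2.21, 2.24, 2.31, 2.51 and 2.52 FPKM in AGM. It ranged from 2.54 over a median of 4.22 to 6.97 FPKM in TI, and from 1.78 over 5.75 to 9.22 FPKM in TIM. All tumors exceeded all AG libraries, with a log2 fold change of 1.11 ± 0.25 in TI vs AG (SE; FDR 0.000597) and 1.41 ± 0.25 in TIM vs AG (FDR 4.76e-05). TIM was also above AGM (0.92 ± 0.21, FDR 0.000575), with 1 TIM library below all AGM libraries, but without the libraries above 90% this call was lost (0.64, FDR 0.0916). Between AGM and AG (0.49 ± 0.27, FDR 0.172) and between TIM and TI (0.30 ± 0.18, FDR 0.247) the difference missed the threshold. Without TIM library 8 both passed it (FDR 0.0451 and 0.0126). AGM vs AG also passed when only these 2 groups set the spread (FDR 0.000185) and in an exact permutation test of Hk1 alone (unadjusted p = 0.0179), and without the libraries above 90% TIM vs TI was -0.02 (FDR 0.988).

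Hk2 was nearly lost in TI. The AG libraries held 0.732, 1.59 and 2.07 FPKM (469 to 1312 recovered reads), and the AGM libraries 1.90, 2.35, 2.78, 3.87 and 4.03 FPKM. TI ranged from 0 over a median of 0.114 to 0.205 FPKM (0 to 155 reads), and TIM from 0.158 over 0.563 to 2.50 FPKM. All TI libraries lay below all AG libraries, and 7 of 8 TIM libraries lay above all TI libraries. The group mean fell from 1.47 ± 0.678 in AG to 0.115 ± 0.0688 FPKM in TI (SD), a ratio of 12.8, and in the TI library listed at 0, 3 reads would have been 0.00673 FPKM. On the log2(FPKM + 1) scale, which understates changes of low genes, the fold change was -1.11 ± 0.25 in TI vs AG (SE; FDR 0.000629), 0.69 ± 0.18 in TIM vs TI (FDR 0.00937) and -1.12 ± 0.21 in TIM vs AGM (FDR 7.21e-05). TIM vs AG was -0.41 ± 0.25 (FDR 0.166), and -0.55 (FDR 0.0300) without TIM library 3, the one at 2.50 FPKM. AGM vs AG was 0.70 ± 0.27 (FDR 0.0512), with FDR 0.0436 without AG library 3 0.0331 without AGM library 3, and 0.0198 to 0.0496 without TIM library 3, 4, 5 or 8. It also passed with median-of-ratios scaling (0.79, FDR 0.0302), when only the 2 groups set the spread (FDR 0.0357) and without the libraries above 90% (0.86, FDR 0.0495).

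Adipocyte markers moved with Hk2 in the glands. Summed FPKM of 6 adipocyte markers was 52.3, 185 and 230 in the AG libraries with 0.732, 1.59 and 2.07 FPKM of Hk2, and 228 to 1092 in AGM. In TI it was 0.561 to 2.74, with 5 of the 6 markers below 1 FPKM in every library, and in TIM 0.0964 to 37.1. All 6 markers were lower in TI vs AG and 5 of 6 in TIM vs AG, and 4 of 6 were higher in AGM vs AG. The TIM library with the highest Hk2, 2.50 FPKM, had an adipocyte sum of 1.43 FPKM. The part of fat cells in the Hk2 values was not tested.

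Pfkp (ENSMUSG00000021196, chromosome 13, 6629798 to 6698970, minus strand) encodes the platelet form of phosphofructokinase, the enzyme that commits sugar to glycolysis. It was higher in both kinds of tumor. In the AG libraries it stood at 0.860, 0.882 and 0.980 FPKM, and in the AGM libraries at 0.978, 1.03, 1.15, 1.18 and 1.25 FPKM. TI ranged from 1.63 over a median of 2.33 to 2.89 FPKM, and TIM from 1.21 over 2.59 to 3.85 FPKM. Every tumor exceeded every AG library, and 7 of 8 TIM libraries exceeded every AGM library. The log2 fold change was 0.78 ± 0.16 in TI vs AG (SE; FDR 0.000204), 0.86 ± 0.16 in TIM vs AG (FDR 6.82e-05) and 0.71 ± 0.13 in TIM vs AGM (FDR 6.34e-05). TIM and TI (0.08 ± 0.12, FDR 0.648) and AGM and AG (0.15 ± 0.17, FDR 0.539) did not differ past the threshold, although AGM vs AG passed when only these 2 groups set the spread (FDR 0.0396).

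Pgk1 (ENSMUSG00000062070, chromosome X, 105230706 to 105247305, plus strand) encodes phosphoglycerate kinase, the first step of glycolysis that yields ATP. AG libraries were at 13.5, 15.6 and 16.2 FPKM, and AGM libraries at 19.4, 19.5, 20.3, 24.2 and 24.3 FPKM. TI ranged from 14.4 over a median of 16.5 to 22.6 FPKM, and TIM from 18.5 over 26.2 to 32.9 FPKM. TIM and AGM lay above all AG libraries, and TI overlapped AG. The log2 fold change was 0.71 ± 0.16 in TIM vs AG (SE; FDR 0.000698), 0.48 ± 0.17 in AGM vs AG (FDR 0.0379) and 0.50 ± 0.12 in TIM vs TI (FDR 0.00437), whereas TI vs AG (0.20 ± 0.16, FDR 0.296) and TIM vs AGM (0.22 ± 0.13, FDR 0.142) missed the threshold. The AGM vs AG call was lost when AG library 1 (FDR 0.159), 2 (FDR 0.0829) or 3 (FDR 0.0654) or AGM library 3 (FDR 0.0781), 4 (FDR 0.0510) or 5 (FDR 0.0848) was left out, and when FPKM was scaled to reads outside the genes above 1000 FPKM (0.03, FDR 0.902). It was also lost with 1 FPKM required in every library (FDR 0.0781) and without the libraries above 90% (0.35, FDR 0.330), where TIM vs TI was 0.51 (FDR 0.0573). With the scaling to reads outside those genes, TIM vs AGM passed (0.55, FDR 0.00174). The annotation names 3 related copies (Pgk1-ps1, Pgk1-ps3 and Pgk1-rs7), between which and Pgk1 the counting could split reads, so the level is uncertain to that extent.

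Pkm (ENSMUSG00000032294, chromosome 9, 59563364 to 59586663, plus strand) encodes pyruvate kinase of muscle and growing tissue, in spliced forms that a gene total does not part. It had the highest level of the 10 genes in every group by mean FPKM, with 44.1 ± 4.40 in AG, 45.4 ± 7.19 in AGM, 33.3 ± 4.06 in TI and 45.7 ± 11.6 in TIM (SD). The AG libraries held 39.4, 44.6 and 48.1 FPKM, and the AGM libraries 37.0, 41.3, 44.6, 47.9 and 56.0 FPKM. TI ranged from 27.5 over a median of 33.8 to 38.4 FPKM, below all AG libraries, and TIM from 31.0 over 49.0 to 63.8 FPKM. The only comparison past the threshold was TIM vs TI, with a log2 fold change of 0.41 ± 0.14 (SE; FDR 0.0371). This call was lost without TI library 1, 4 or 8 or TIM library 3, 4, 5, 6 or 7, at FDR 0.0507 to 0.0707, with FPKM scaled to reads outside the genes above 1000 FPKM (0.29, FDR 0.134), without the libraries above 90% (0.50, FDR 0.0808), when only the 2 groups set the spread (FDR 0.0868) and with 1 FPKM required in every library (FDR 0.0540). TI vs AG was -0.40 ± 0.19 (FDR 0.0831), but passed when only the 2 groups set the spread (FDR 0.0249) and in an exact permutation test of Pkm alone (unadjusted p = 0.00606). TIM vs AG (0.01), AGM vs AG (0.03) and TIM vs AGM (-0.02) were near 0.

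Ldha (ENSMUSG00000063229, chromosome 7, 46490899 to 46505061, plus strand) encodes the A subunit of lactate dehydrogenase, which turns pyruvate to lactate and is a classic target of HIF-1 and MYC. On the log2(FPKM + 1) scale it had the highest fold change of the 9 tested members in TIM vs AG and in TIM vs TI. By the ratio of mean FPKM between TIM and TI, Hk2 (7.99) and Slc2a1 (3.09) lay above Ldha (2.995). In the AG libraries it stood at 5.94, 9.90 and 12.4 FPKM, and in the AGM libraries at 17.5, 23.7, 24.9, 28.6 and 48.6 FPKM. TI ranged from 5.40 over a median of 15.2 to 17.9 FPKM, and TIM from 23.2 over 39.4 to 63.1 FPKM. TIM lay wholly above TI and AG, AGM wholly above AG, and TI on both sides of AG. The means of 9.41 ± 3.26 in AG, 28.7 ± 11.8 in AGM, 13.7 ± 4.14 in TI and 40.9 ± 13.4 in TIM (SD) gave a ratio of 4.35 for TIM to AG. The log2 fold change was 1.99 ± 0.33 in TIM vs AG (SE; FDR 2.2e-05), 1.48 ± 0.35 in AGM vs AG (FDR 0.00313) and 1.52 ± 0.24 in TIM vs TI (FDR 0.000212). TI vs AG (0.48 ± 0.33, FDR 0.232) and TIM vs AGM (0.51 ± 0.28, FDR 0.105) missed the threshold. TIM vs AGM passed without AGM library 5, the one at 48.6 FPKM (0.72, FDR 0.0303), and with FPKM scaled to reads outside the genes above 1000 FPKM (0.85, FDR 0.00620). The 3 annotated copies of Ldha (Ldha-ps, Ldha-ps2 and Ldha-ps3) could share reads with it.

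**Figure D3:**
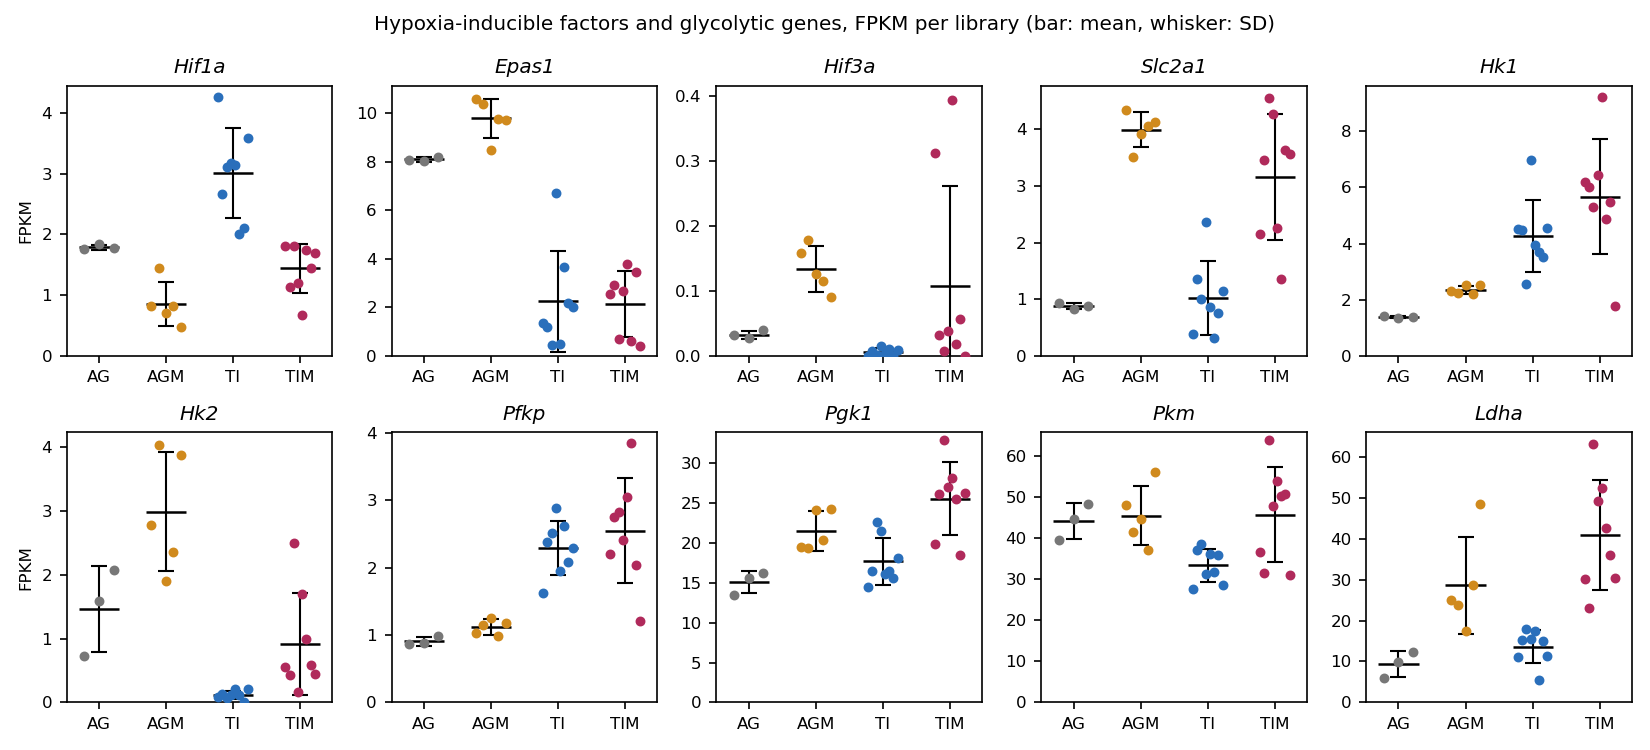
FPKM (vertical axes, from 0) of the 10 genes in each of the 24 libraries, grouped as AG, AGM, TI and TIM, with the mean as a bar and the SD as whiskers. Hk2 is at or below 0.205 FPKM in all TI libraries, and Ldha is at or above 23.2 FPKM in all TIM libraries and at or below 17.9 FPKM in all TI libraries.

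Whether the TIM vs TI difference of a member differed from its AGM vs AG difference was tested as an interaction, TIM minus TI less AGM minus AG. The Ldha difference was 1.52 between the tumors and 1.48 between the glands, and the interaction was 0.03 ± 0.43 (SE). For Hif1a the differences were -0.71 and -0.61 and the interaction -0.10 ± 0.22, and for Slc2a1 they were 1.05 and 1.40 and the interaction -0.36 ± 0.31. None of the 9 members passed, and the lowest FDR was 0.384 (Pkm). The SE leave room for differences of the size of many of the changes given above, so a like response is not shown. Both differences also follow the sequencing runs in large part.

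Shares within a family do not depend on how a library was scaled, but they can still depend on the authors' correction between batches and on the sequencing run. Each was compared by an exact two-sided permutation test in the 5 comparisons, with p-values adjusted over the 25 tests. Hk2 made up 49.3% ± 13.7 (SD, n = 3) of summed Hk1 and Hk2 FPKM in AG and 54.8% ± 8.23 in AGM, but 2.63% ± 1.55 in TI and 13.9% ± 9.35 in TIM. The highest tumor, at 32.0%, stayed below the lowest gland, at 33.9%. The adjusted exact p was 0.0152 for TI vs AG and for TIM vs AG, 0.00907 for TIM vs TI and for TIM vs AGM, and 0.482 for AGM vs AG. Slc2a1 made up 79.3% ± 1.36 of Slc2a1 and Slc2a3 (the high-affinity neuronal carrier GLUT3) in AG and 75.2% ± 3.78 in AGM, against 20.6% ± 11.6 in TI and 26.3% ± 8.94 in TIM. Here too no tumor reached a gland, with adjusted exact p of 0.0152 for each kind of tumor against AG and 0.297 for TIM vs TI.

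Pfkp made up 11.9% ± 2.22 of the 3 phosphofructokinase genes (Pfkp, the liver form Pfkl and the muscle form Pfkm) in AG, 5.44% ± 0.518 in AGM, 34.5% ± 6.31 in TI and 26.3% ± 12.4 in TIM. The adjusted exact p was 0.0152 for TI vs AG, 0.0298 for AGM vs AG, 0.00971 for TIM vs AGM, 0.116 for TIM vs AG and 0.154 for TIM vs TI. The AGM vs AG call was lost when AG library 1, 2 or 3 or AGM library 1, 3 or 4 was left out (adjusted exact p 0.0510 to 0.0850). The losses without an AG library were fixed in advance, because the few splits left could not give an exact p that passes after adjustment. Every AGM library (4.71% to 6.01%) lay below every AG library (10.2% to 14.4%). The exact p without an AGM library was thus also the smallest possible, and whether it passed depended on the other tests in the adjustment. One TIM library, number 2, stood at 55.1%, above the next at 28.4%. Without it TIM vs AG (a difference of 10.3 percentage points, adjusted exact permutation p = 0.0263) and TIM vs TI (-12.3, p = 0.0101) passed. Ldha made up 56.7% ± 1.35 of Ldha and Ldhb (the heart form, which favours the reverse reaction) in AG, 65.7% ± 8.48 in AGM, 84.8% ± 11.3 in TI and 76.0% ± 10.9 in TIM. All TI libraries exceeded all AG libraries (adjusted exact p = 0.0152), as did all TIM libraries (p = 0.0233), while TIM vs TI gave p = 0.159 and AGM vs AG p = 0.183. The TIM vs AG call was lost without AG library 2 (exact permutation p = 0.111, adjusted) or TIM library 3, 4 or 8 (0.0556 each).

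Epas1 made up 81.6% ± 0.408 of the summed FPKM of the 3 alpha subunits in AG, 91.0% ± 2.87 in AGM, 37.4% ± 21.5 in TI and 51.8% ± 23.9 in TIM. The adjusted exact p was 0.0233 for TI vs AG, 0.0298 for AGM vs AG, 0.0159 for TIM vs AGM, 0.0663 for TIM vs AG and 0.234 for TIM vs TI. The AGM vs AG call was lost when AG library 1, 2 or 3 or AGM library 1, 3 or 4 was left out (adjusted exact p 0.0794 to 0.0893). With an AG library left out, even the smallest possible exact p could not pass here after adjustment, so those losses were fixed in advance. Within TI the share ran from 12.8% to 67.7% and within TIM from 19.0% to 77.9%, so in both kinds of tumor some libraries held mostly Hif1a and others mostly Epas1. Without TIM library 2, TIM vs AG gave an adjusted exact permutation p of 0.0463.

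**Figure D4:**
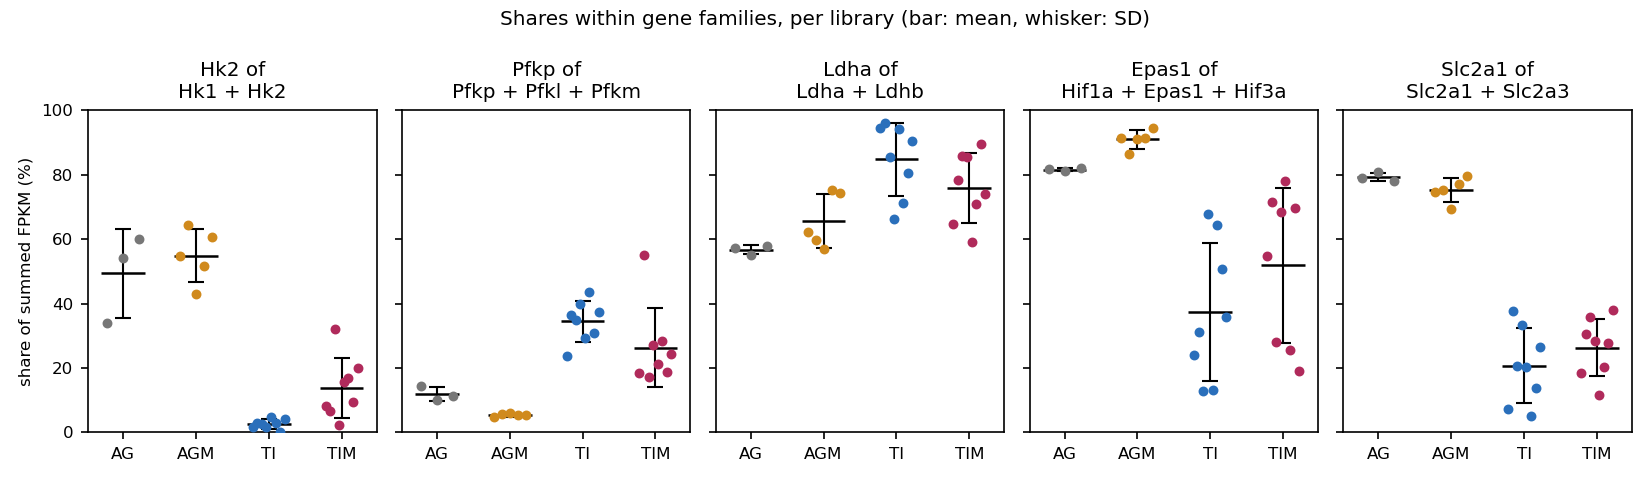
Share of summed FPKM in percent (vertical axis, 0 to 100) of the named gene within its family in each library, by group, with the mean as a bar and the SD as whiskers. Hk2 falls from 49.3% in AG to 2.63% in TI, and Slc2a1 from 79.3% to 20.6%.

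Among 12 HIF partners and oxygen sensors, 11 were tested. In TI vs AG 3 were higher and 2 lower, and in TIM vs AG 2 and 2, when 52.4% and 51% of all genes were called. In AGM vs AG none passed limma's threshold (28.6% of all genes), in TIM vs TI 1 was lower (22.9%), and in TIM vs AGM 4 were higher and 1 lower (65.3%). Egln3, the prolyl hydroxylase that HIF itself induces, stood at 1.05 ± 0.111 FPKM in AG (SD) and at 21.8 ± 21.98 in TI, where libraries ran from 0.510 to 71.3 FPKM, and at 2.97 ± 1.92 in TIM. Its log2 fold change was 2.85 ± 0.69 in TI vs AG (SE; FDR 0.00139) and -2.07 ± 0.51 in TIM vs TI (FDR 0.00632). Arnt, the general beta subunit, was lower in TI (-0.51, FDR 0.000106) and TIM (-0.50, FDR 0.000139) than in AG, and Arnt2, its neuronal relative, was higher (1.02, FDR 0.00996, and 0.87, FDR 0.0266). Rbx1, of the VHL ubiquitin ligase, was higher in TI (0.83, FDR 0.000149) and TIM (0.67, FDR 0.00128), and Egln2 was lower in TI (-0.38, FDR 0.0445) and TIM (-0.54, FDR 0.00623).

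Of 25 other genes of hexose transport and glycolysis, 19 were tested. In TI vs AG 1 was higher and 6 were lower, in TIM vs AG 5 were higher and 1 lower, in AGM vs AG 11 were higher and none lower, and in TIM vs TI 8 were higher and none lower. In TIM vs AGM 1 was higher and 9 were lower. Of all genes, 24.6% were higher and 27.7% lower in TI vs AG, 22.5% and 28.5% in TIM vs AG, 14.6% and 14% in AGM vs AG, 10% and 12.9% in TIM vs TI, and 31.9% and 33.4% in TIM vs AGM. The higher gene in TI was Slc2a3, which went from 0.232 ± 0.0294 FPKM in AG (SD) to 4.08 ± 1.11 in TI and 9.26 ± 3.67 in TIM (log2 fold change 2.01, FDR 1.57e-07, and 2.99, FDR 2.12e-10). It was also higher in AGM than in AG (0.91, FDR 0.00923). Lower in TI were the phosphoglycerate mutase Pgam1 (from 63.2 ± 1.63 to 18.3 ± 1.95 FPKM, and lower in TIM than in AG by a log2 fold change of -0.99, FDR 3.29e-05), the aldolase Aldoa (from 68.2 ± 12.1 to 25.9 ± 7.88 FPKM) and Ldhb (from 7.18 ± 2.43 to 2.55 ± 2.44 FPKM). Aldoa and Ldhb were higher in TIM than in TI, by 1.63 (FDR 0.000241) and 2.05 (FDR 0.000447) on the log2 scale, as were the neuronal enolase Eno2 (1.57, FDR 0.00248) and Pfkm (1.54, FDR 0.00119). Also higher in TIM vs AG were Eno2 (2.49, FDR 8.5e-05) and the isomerase Gpi1 (1.26, FDR 0.00100), and both were higher in AGM vs AG too (2.01, FDR 0.00397, and 1.17, FDR 0.00813), as was Aldoa (1.81, FDR 0.00113). In AGM vs AG the insulin-regulated carrier Slc2a4 rose from 1.10 ± 0.768 to 11.3 ± 4.01 FPKM (FDR 0.000328) and Pfkm from 2.12 ± 0.0597 to 12.2 ± 1.30 FPKM (FDR 0.00107). The liver gene Pklr also passed there (FDR 0.00142), but single AGM libraries ran from 0.00385 to 807 FPKM, and each AG library held 1 read of it.

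Of 15 genes for the fate of pyruvate and lactate, 13 were tested. In TI vs AG 1 was higher and 9 were lower, and in TIM vs AG 2 were higher and 6 lower, when 27.7% and 28.5% of all genes were lower. In AGM vs AG 3 were higher and 1 lower (14.6% and 14% of all genes), in TIM vs TI 3 and 1 (10% and 12.9%), and in TIM vs AGM 2 and 9 (31.9% and 33.4%). Slc16a3, which exports lactate, was the higher gene in TI (from 0.0943 ± 0.0313 to 1.76 ± 1.25 FPKM, FDR 0.00774) and was higher in TIM (1.36 ± 1.14 FPKM, FDR 0.0254). Pdha1, of the pyruvate dehydrogenase complex, fell from 12.04 ± 3.92 FPKM in AG to 4.11 ± 1.09 in TI (FDR 9.14e-05) and 5.06 ± 2.00 in TIM (FDR 0.000581). The mitochondrial pyruvate carrier Mpc1 fell from 6.53 ± 2.55 to 2.20 ± 0.806 in TI (FDR 0.000863) and 2.62 ± 1.40 in TIM (FDR 0.00274). Pdk4, an inhibitor of pyruvate dehydrogenase, fell in TI (log2 fold change -1.56, FDR 0.0164), and Dld fell in TI (-0.97, FDR 8.16e-05), in TIM (-1.39, FDR 7.71e-07) and in AGM (-0.82, FDR 0.00275). Pdk2, another kinase of that family, was higher in AGM (1.88, FDR 0.00607), as were the carrier chaperone Bsg (0.88, FDR 0.0296) and Mpc1 (0.83, FDR 0.0409), and Bsg was also higher in TIM vs AG (0.74, FDR 0.0284). Pdk1 (-0.43, FDR 0.00282) and Dlat (-0.71, FDR 0.00119) were lower in TI than in AG. Between the tumors, Bsg (0.60, FDR 0.0380), Pdk1 (0.42, FDR 0.00133) and Dlat (0.40, FDR 0.0263) were higher in TIM, and Dld was lower (-0.42, FDR 0.0255).

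Of 25 other genes known as HIF targets, 20 were tested. In TI vs AG 7 were higher and 5 lower, when 52.4% of all genes were called, and in TIM vs AG 9 and 6 (51% of all genes). In AGM vs AG 5 were higher and none lower (28.6%), in TIM vs TI 5 and 1 (22.9%), and in TIM vs AGM 7 and 7 (65.3%). Vegfa, the vessel growth factor, fell from 9.52 ± 1.96 FPKM (SD) in normal glands to 2.42 ± 0.585 in TI (FDR 1.57e-06) and 3.45 ± 1.49 in TIM (FDR 3.48e-05), and was higher in AGM (16.0 ± 1.52, FDR 0.0279). The lipid droplet gene Plin2 fell from 16.3 ± 2.71 to 2.65 ± 1.53 in TI (FDR 1.08e-05) and 3.39 ± 2.71 in TIM (FDR 3.63e-05). Bnip3, a mitophagy receptor, fell in TI (-1.44, FDR 8.8e-06) and in TIM (-0.78, FDR 0.00490), and was higher in AGM than in AG (0.66, FDR 0.0419) and in TIM than in TI (0.66, FDR 0.00661). The transferrin receptor Tfrc rose from 0.404 ± 0.0580 FPKM to 3.13 ± 0.576 in TI (FDR 9.08e-05) and 6.57 ± 3.19 in TIM (FDR 5.16e-07), and was higher in TIM than in TI (0.75, FDR 0.0141). Adm was higher in AGM vs AG (2.05, FDR 0.00027) and TI vs AG (1.39, FDR 0.00190), and lower in TIM vs AGM (-1.27, FDR 0.000722). The stress gene Ddit4 was higher in AGM vs AG (1.11, FDR 0.0206), TIM vs AG (1.13, FDR 0.00578) and TIM vs TI (1.24, FDR 0.00116). Cxcr4 was lower in TIM vs AG (-1.26, FDR 0.00259) and TIM vs TI (-0.73, FDR 0.0328).

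Of 7 gluconeogenesis genes, 5 were tested, and 3 fell in each kind of tumor against AG, when 27.7% (TI) and 28.5% (TIM) of all genes were lower. All 5 were lower in TIM vs AGM (33.4% of all genes). Pcx, the pyruvate carboxylase, went from 46.9 ± 10.8 FPKM in AG (SD) to 0.283 ± 0.142 in TI (FDR 2.75e-12) and 1.15 ± 1.60 in TIM (FDR 1.9e-11). Pck1 went from 46.4 ± 35.7 FPKM, with AG libraries between 5.76 and 72.9, to 0.0135 ± 0.0136 in TI (FDR 1.95e-08) and 0.405 ± 0.762 in TIM (FDR 6.24e-08). G6pc3 fell by less (log2 fold change -0.64, FDR 0.0169, and -0.55, FDR 0.0401). In AGM vs AG, Fbp1 was higher (2.16, FDR 0.0344), at 0.454 to 48.8 FPKM over the AGM libraries, and in TIM vs TI none of the 5 passed limma's threshold. Pck1 and Pcx are also genes of fat and other gland cells, and the adipocyte and adrenal cortex markers were low in the tumors as well. In AGM vs AG, 8 of 8 cortex and 4 of 6 adipocyte markers were higher. There Pcx was level (46.6 ± 10.1 FPKM in AGM, FDR 0.999), and Pck1 was lower without passing (13.7 ± 8.49 FPKM in AGM, FDR 0.0836). The part of those cells was not tested.

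**Figure D5:**
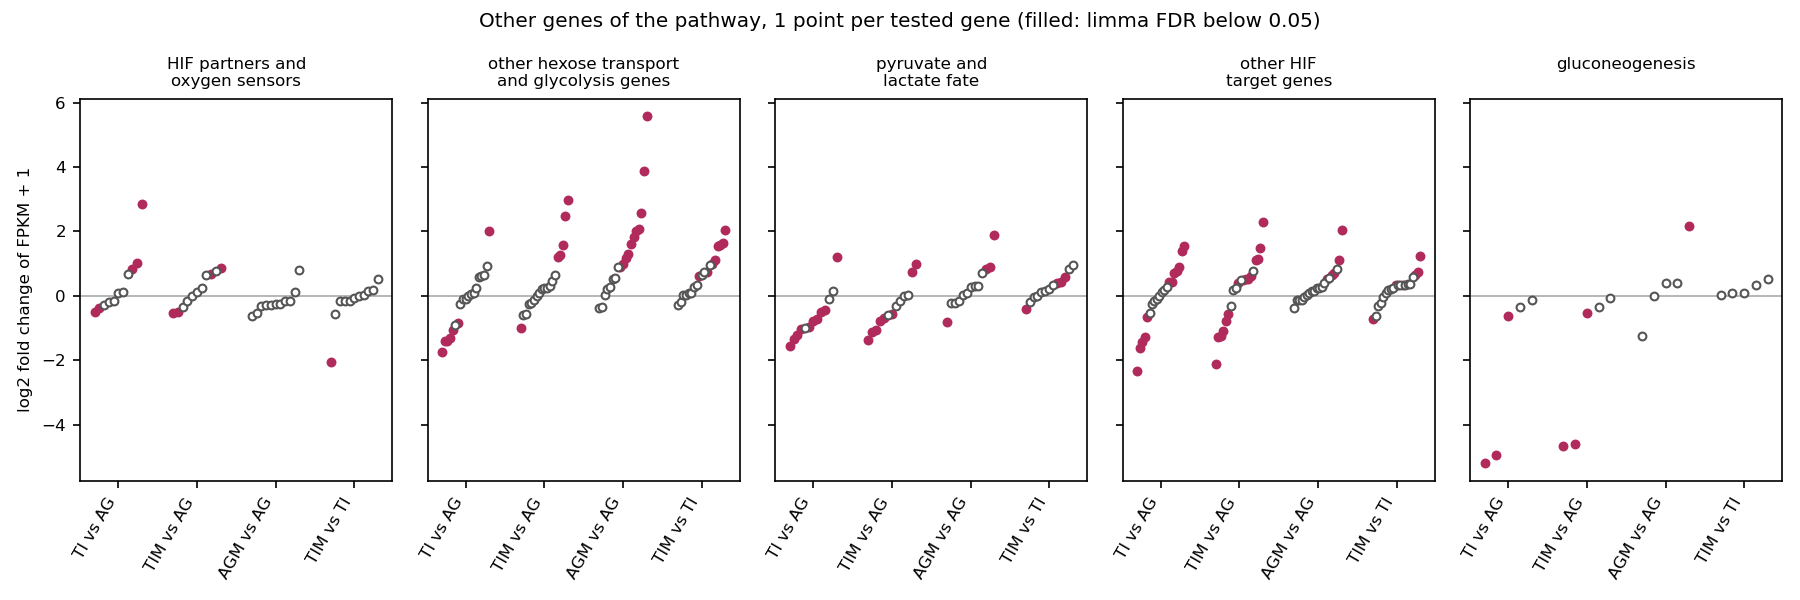
Log2 fold change of FPKM + 1 (vertical axis) of each tested gene of the 5 other gene lists (panels) in 4 comparisons (horizontal axis), ordered by size within a comparison, with filled points for a limma FDR below 0.05. Other glycolysis genes reach 5.58 (Pklr) in AGM vs AG, and Pcx lies at -5.21 in TI vs AG.

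For each tested member, the gene with the most similar pattern was found by Pearson's r of log2(FPKM + 1) over the 24 libraries, which share groups, runs and scaling, so r is a description. Epas1 was nearest to Eng (r = 0.956), a gene of endothelium, at 8.28 ± 0.429 FPKM in AG (SD), 7.81 ± 1.97 in AGM, 2.76 ± 2.30 in TI and 2.18 ± 1.44 in TIM. Hk2 was nearest to the transketolase gene Tkt (r = 0.929), at 23.3 ± 9.06 FPKM in AG, 32.5 ± 8.11 in AGM, 7.02 ± 0.679 in TI and 11.7 ± 4.02 in TIM. Pkm was nearest to the enolase gene Eno1 (r = 0.836), at 33.3 ± 6.95 FPKM in AG, 41.2 ± 12.5 in AGM, 13.1 ± 4.31 in TI and 25.0 ± 14.6 in TIM. The nearest gene was Vezf1 for Hif1a (r = 0.940), Hoxd8 for Slc2a1 (r = 0.892), Tmem8b for Hk1 (r = 0.961) and Mapk10 for Pfkp (r = 0.931). It was Nptx2 for Pgk1 (r = 0.822) and Fam241b for Ldha (r = 0.843). Nptx2 had means of 0.00371 (AG), 0.00188 (TI), 1.33 (AGM) and 3.70 FPKM (TIM). Hoxd8 had 0.742, 0.361, 4.82 and 2.83 FPKM in the same order, and Fam241b 0.351, 0.565, 1.09 and 1.22 FPKM. AGM and TIM share the MYCN label and also hold most of their reads in genes above 1000 FPKM, and these cannot be told apart.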

How the data were processed

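Poly(A)-selected, strand-specific RNA-seq of 24 mouse samples was analysed. The authors aligned reads to mm39, adjusted counts between batches by ComBat-seq and deposited FPKM after TMM scaling in edgeR. The submitters' processing notes name cutadapt 2.8, HISAT2 2.1.0, SAMtools 1.10, featureCounts 2.0.0 and edgeR 3.40 as tools of the authors. Log2 fold changes, p-values and FDR that the authors deposited for AGM, TI and TIM against AG were not used. Columns carried no sample number, so each was assigned to a group by its name, and libraries are numbered in column order. FPKM times gene length was a whole multiple of 1 read (within 0.01 reads) for 100% of values, which gave recovered reads. These reads were corrected by the authors and are not the sequencing depth. Values of scarce genes are less precise.

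limma 3.58.1 in R 4.3.3 (lmFit, eBayes with trend) tested log2(FPKM + 1) for each gene that reached 1 FPKM in 3 or more libraries, with all 24 libraries in 1 fit and Benjamini-Hochberg adjustment over 10171 genes. It was tested on simulated data. Hif3a and family shares were compared by exact permutation. The members and gene lists were chosen with earlier results of these data known. From each list, up to 4 called genes with the largest change per comparison were named, without TIM vs AGM. Some of these are counted in their lists but not reported here by name. Alternatives were a pseudocount of 0.1, other filters, 2 other scalings, the groups that set the spread, limma-voom on recovered reads, an exact test per member, and leaving out libraries. Promoters came from GRCm39 with GENCODE M39.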

Additional observations from a re-analysis of the deposited data

Results flagged for a closer look

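Of 45 groups of 4 to 10 libraries examined for a library far from the others, 2 held one, where chance alone gives about 1 in 20. Hk1 in TI had its highest library at 6.97 FPKM, while the next stood at 4.56 FPKM. The same library, TI library 4, had the highest Epas1 (6.70 FPKM), the highest endothelial marker sum (27.97 FPKM) and the highest fibroblast marker sum (57.0 FPKM) in TI. The share of Pfkp among the phosphofructokinase genes in TIM had its highest library at 55.1%, while the next stood at 28.4%.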

How the results depend on the processing

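No paired analysis was possible because the columns carry no sample number. Of the 1080 values of the 9 tested members with 1 library left out, 1029 kept their direction and their side of the threshold, 18 lost it, 10 gained it and 23 turned their sign. Of 380 values under the other settings, the counts were 344, 12, 11 and 13. No value that turned was past the threshold in the fit reported. Scaling FPKM to reads outside the genes above 1000 FPKM shifted the median of all tested genes by -0.45 (log2) in AGM vs AG, -0.15 in TIM vs AG, -0.13 in TIM vs TI, 0.30 in TIM vs AGM and -0.02 in TI vs AG, so member changes under it are read against these shifts. Signs that turned under this scaling were Slc2a1 in TI vs AG (-0.015), Pkm in TIM vs AG (-0.14), AGM vs AG (-0.44) and TIM vs AGM (0.30), Pfkp in AGM vs AG (-0.14) and TIM vs TI (-0.026), and Epas1 in AGM vs AG (-0.20) and TIM vs TI (-0.095). Slc2a1 in TI vs AG also turned with a pseudocount of 0.1 (-0.012) and with limma-voom (-0.065). Without the libraries above 90%, Hk1 (-0.020) and Epas1 (-0.46) in TIM vs TI and Pkm in TIM vs AGM (0.089) turned.

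The requirement of 1 FPKM in every library left 4 members to test, of which 1 was called in TI vs AG, 3 in TIM vs AG, 1 in AGM vs AG, 2 in TIM vs TI and 1 in TIM vs AGM. Of all genes tested under this requirement, 47.0%, 44.3%, 16.4%, 21.3% and 56.1% were called in the same order. When only the 2 groups compared set the spread, 8 of 9 members were called in AGM vs AG, beside 62.1% of all tested genes. Without the libraries above 90%, 3 of 9 were called in TIM vs AGM, beside 51.6%. With 1 library left out, the members called in AGM vs AG ranged from 2 (without AG library 2) to 6 (without TIM library 8). Of all tested genes, 19.0% and 31.0% were called in these 2 fits. Log2 fold changes then ranged from -0.069 to 0.13 for Slc2a1 in TI vs AG, from -0.063 to 0.085 for Pkm in TIM vs AG, from -0.046 to 0.10 for Pkm in AGM vs AG, from -0.092 to 0.059 for Pkm in TIM vs AGM and from -0.12 to 0.23 for Epas1 in TIM vs TI. Share differences, in percentage points, ranged from -2.28 to 10.8 for Hk2 in AGM vs AG, from -7.40 to -5.26 for Pfkp in AGM vs AG, from 10.3 to 15.7 for Pfkp in TIM vs AG, from -12.3 to -6.86 for Pfkp in TIM vs TI, from 17.3 to 21.7 for Ldha in TIM vs AG, from 8.46 to 10.5 for Epas1 in AGM vs AG and from -33.5 to -25.1 for Epas1 in TIM vs AG. As log2 ratios of the named gene to its relatives, the shares of Pfkp (1.32, adjusted exact p = 0.0379) and Epas1 (-2.05, adjusted exact p = 0.0446) passed in TIM vs AG.

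Over all tested genes, calls in AGM vs AG numbered 2908 as reported, with 51.2% of them higher. They numbered 4604 (21.2% higher) with the scaling to reads outside the genes above 1000 FPKM, 2774 (63.8% higher) with median-of-ratios scaling, 6312 with only the 2 groups setting the spread, and 1842 without the libraries above 90%. In TIM vs TI they numbered 2332 (43.6% higher), 2695 (30.3% higher) and 2184 (55.0% higher) in the same scalings, and 1309 and 678 under the last pair of settings. In TIM vs AGM the share of higher calls was 48.8% as reported and 61.7% with the scaling to reads outside those genes. Without AG library 1 or 2, AGM vs AG had 1896 and 1935 calls. With 1 FPKM required in every library, 3464 genes were tested in place of 10171, and calls were 1627 for TI vs AG (5327 as reported), 1534 for TIM vs AG (5190), 569 for AGM vs AG (2908), 737 for TIM vs TI (2332) and 1944 for TIM vs AGM (6639). The causes of these changes were not tested.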
